A study of Homo sapiens with 4 samples.

Results

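The 10 genes described here form the regulatory core of the integrated stress response: the eIF2α kinases EIF2AK1, EIF2AK2, EIF2AK3 and EIF2AK4, the phosphatase subunits PPP1R15A and PPP1R15B, and the basic leucine zipper (bZIP) transcription factors ATF4, ATF3, CEBPB and CEBPG. They were taken by gene name from the authors' deposited table of the comparison between isoginkgetin and DMSO, which lists 8727 genes, and 8 of the 10 have a row in it. The table holds only genes with an adjusted p under 0.05, so EIF2AK2 and CEBPB, which have no row, have no value here. The RNA came from HepG2, a human liver cancer cell line labelled as hepatoblastoma. The groups were 2 libraries from cells given the solvent DMSO and 2 from cells given 20 µM isoginkgetin, a flavonoid dimer from ginkgo that inhibits the splicing of pre-mRNA, for 24 h. Nothing in the labels gives a genotype change or a second agent in either group.

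In the integrated stress response, each of the kinases senses a different strain and phosphorylates the α subunit of the initiation factor eIF2, which slows general protein synthesis. Translation of ATF4 mRNA rises under this condition because of short upstream reading frames, and ATF4 protein then activates genes for amino acid supply, further bZIP factors and PPP1R15A. PPP1R15A and PPP1R15B guide protein phosphatase 1 to eIF2α and reverse the mark. Phosphorylation and translation were not measured in these libraries, and the values below are levels of polyadenylated RNA alone.

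The authors' deposited table gives 1 mean normalized count per gene over the 4 libraries, a log2 fold change and its standard error (SE). Values of single libraries are not analysed here, so the spread between libraries enters only through the SE. The header does not say which group was divided by which. Positive fold changes are read as higher after isoginkgetin, the usual order, and under the opposite order all directions below would turn. Normalized counts are relative to the library, so neither a change in cell number nor an even change in RNA per cell can be seen in them. Separate cultures are not stated for the 2 libraries of a group, so the p-values speak for library-to-library spread alone, possibly a technical one. Of 12 hepatocyte markers, 11 have a row in the authors' deposited table, at mean normalized counts between 442.3 and 157429, and all 11 were lower (median log2 fold change −0.76). Only PDGFRB of 6 fibroblast markers, LYZ of 6 leukocyte markers, and PECAM1 and CLDN5 of 5 endothelial markers have a row in the authors' deposited table, and these 4, named after their values were seen, were lower too. Their levels were unlike, with mean normalized counts of 60.2 for PDGFRB, 15328 for LYZ, 128.9 for PECAM1 and 14.2 for CLDN5. A row exists for 91.7% of the hepatocyte markers, 16.7% each of the fibroblast and leukocyte markers and 40% of the endothelial markers. Of all genes tested, 43.6% have a row, 21.1% as lower. The part of this marker shift in the values below was not tested.

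Of the 10 genes, 6 were higher after isoginkgetin (EIF2AK3, PPP1R15A, PPP1R15B, ATF4, ATF3 and CEBPG) and 2 were lower (EIF2AK1 and EIF2AK4) in the authors' deposited table. The ratio of adjusted to raw p-values over the ranked genes implies that 20024 genes were tested, of which 43.6% passed the threshold, 22.4% as higher and 21.1% as lower. EIF2AK3, PPP1R15A, ATF3 and CEBPG were at least 2-fold higher in the authors' deposited table, against 6.26% of all genes tested. Neither of the lower genes reached 2-fold, while 1488 of the 20024 genes tested were called as lower by at least 2-fold. The median log2 fold change of the 8 genes was 0.91, and that of all genes in the table was 0.21. With fold changes centred on that median of 0.21, the same 6 genes were higher and the same 2 lower. The share of called genes at the expression level of these 8, whose mean normalized counts ran from 684.7 to 18110, cannot be computed, because unchanged genes are not listed.

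**Figure D1:**
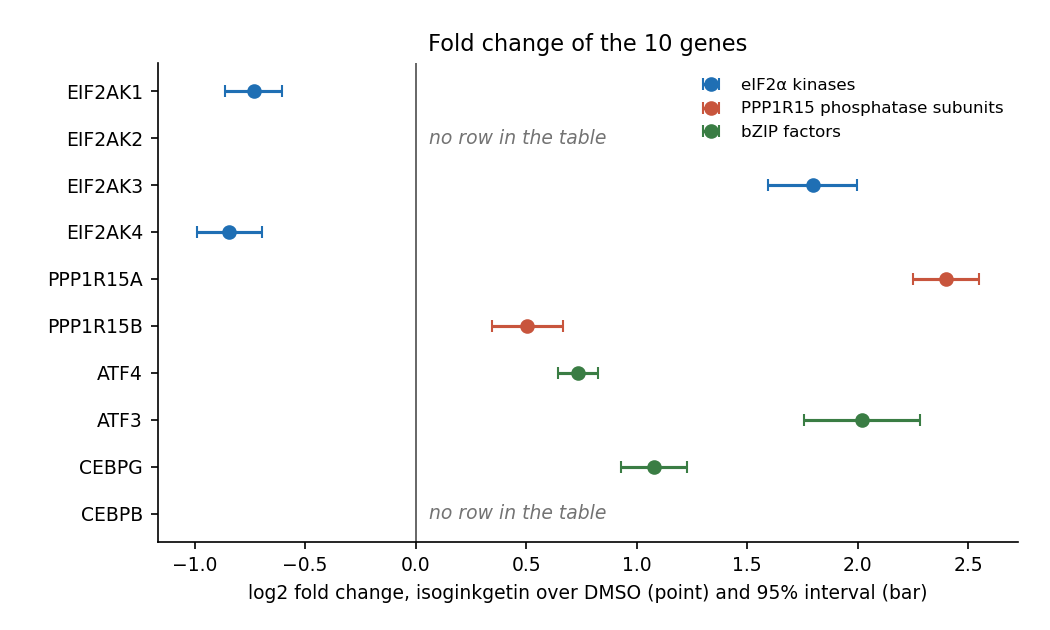
Log2 fold change (isoginkgetin over DMSO) of each of the 10 genes as the authors' table gives it; points are estimates, bars are 95% intervals from the SE, and colours mark the 3 roles. EIF2AK1 and EIF2AK4 lie left of 0, the other 6 with a row lie right of 0, and no interval reaches 0. Only genes with an adjusted p under 0.05 are listed, so that last point is no separate result.

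The kinases went in opposite directions. EIF2AK3, known as PERK, sits in the membrane of the endoplasmic reticulum (ER) and senses unfolded proteins in its lumen. Its log2 fold change in the authors' deposited table was 1.80 (SE 0.10, authors' adjusted p = 8.08e-68), which is 3.47-fold higher with a 95% interval of 3.02 to 3.99. At a mean normalized count of 1295 over the libraries, this implies group means of about 579.1 in DMSO and 2011 in isoginkgetin.

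EIF2AK4, known as GCN2, senses uncharged transfer RNA when amino acids run short. It was lower, with a log2 fold change of −0.84 (SE 0.08, authors' adjusted p = 8.44e-28) in the authors' deposited table. The level after isoginkgetin was 55.8% of that in DMSO, with a 95% interval of 50.3% to 61.8%. Its mean normalized count of 2294 implies about 2945 in DMSO and 1643 in isoginkgetin.

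EIF2AK1, known as HRI, senses heme shortage and relays mitochondrial stress. In the authors' deposited table it stood at −0.73 (SE 0.07, authors' adjusted p = 9.6e-28), or 60.2% of the DMSO level (95% interval 55.1% to 65.9%). A mean normalized count of 3862 implies about 4820 in DMSO and 2903 in isoginkgetin. The intervals of the lower pair, EIF2AK1 and EIF2AK4, overlapped each other, and neither overlapped the interval of EIF2AK3. The fold change of EIF2AK3 was 5.77 times that of EIF2AK1 and 6.23 times that of EIF2AK4, computed from the authors' deposited table. In GENCODE release 29, 532 exon bases of EIF2AK1 are shared with AIMP2 on the opposite strand, and the libraries carry no strand, so reads from there cannot be told apart. AIMP2 itself was lower at −0.40 (SE 0.13) by the authors' deposited table, with a mean normalized count of 892.7. The exons of EIF2AK3 share 781 bases with AC104134.1 and 38 with AC062029.1, clone-named transcripts on the opposite strand. Neither has a row, so their values are unknown, and reads from there cannot be told apart either. EIF2AK4 shares no exon base with another gene in that annotation.

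EIF2AK2, known as PKR, binds double-stranded RNA and is induced by interferon. It has no row under this name. RefSeq also lists EIF2AK1 among the synonyms of EIF2AK2, and the row named EIF2AK1 is read here by its current meaning.

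Levels of different genes can be compared only per length, and the mean normalized counts were therefore divided by the exon length in GENCODE release 29. On this scale EIF2AK1 led the kinases at 864.1 per kb, followed by EIF2AK4 at 306.2 and EIF2AK3 at 268.0, as computed from the authors' deposited means. The implied share of EIF2AK3 in the summed level of these 3 kinases was 7.53% in DMSO and 32.4% in isoginkgetin. For EIF2AK1 the implied share was 67.8% and 50.6%, and for EIF2AK4 24.7% and 17.1%. These shares have no error of their own, since no value per library enters them, and they leave out EIF2AK2. Under the opposite order of the fold change, the DMSO and isoginkgetin shares would change places. EIF2AK1 led in both groups, while EIF2AK3 was below EIF2AK4 in DMSO and above it in isoginkgetin.

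Both phosphatase subunits were higher, and to unlike extents. PPP1R15A, known as GADD34, is the stress-inducible subunit and closes the feedback loop from ATF4 to eIF2α. It had the largest fold change of the 8 genes with a row in the authors' deposited table, a log2 value of 2.40 (SE 0.08, authors' adjusted p = 4.05e-210). This is 5.27-fold, with a 95% interval of 4.75 to 5.86, and the mean normalized count of 3676 implies about 1172 in DMSO and 6180 in isoginkgetin. By p-value PPP1R15A ranked 13 among the 8727 genes of the table, and by fold change 412 among its 4493 higher genes. PPP1R15B, known as CReP, is the constitutive subunit. Its log2 fold change in the authors' deposited table was 0.51 (SE 0.08, authors' adjusted p = 2.99e-09), or 1.42-fold (95% interval 1.27 to 1.59), at a mean normalized count of 2079. This implies about 1719 in DMSO and 2440 in isoginkgetin. The intervals of the pair did not overlap, and the fold change of PPP1R15A was 3.72 times that of PPP1R15B. Per kb of exon, PPP1R15A was at an implied 492.7 in DMSO and 2599 in isoginkgetin, and PPP1R15B at 328.9 and 466.8.

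The sequence before the start sites of these genes is shown because the bZIP factors of the circuit are known to act there. RefSeq promoter entries of the build GRCh38.p14, each with 250 bases before and 50 after a start site, were matched by symbol for 9 of the 10 genes, 13 entries in all. Both strands were searched for TGACGTCA (the cAMP response element), for its half-site TGACG, which lies on both strands of every full element, and for TGATGNAA, a core of the composite element bound by C/EBP and ATF factors. Of all 35116 entries, 1.85% hold the full element, 24.6% the half-site and 3.62% the composite core. Stretches before the start sites of PPP1R15A (chr19:48872249-48872390, plus strand) and PPP1R15B (chr1:204411894-204412064, minus strand) follow, with the matches in capitals. No exon of GENCODE release 29 lies in either.
PPP1R15A: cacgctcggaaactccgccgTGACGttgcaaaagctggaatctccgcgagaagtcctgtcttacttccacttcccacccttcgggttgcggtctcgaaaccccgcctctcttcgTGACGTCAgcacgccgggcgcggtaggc
PPP1R15B: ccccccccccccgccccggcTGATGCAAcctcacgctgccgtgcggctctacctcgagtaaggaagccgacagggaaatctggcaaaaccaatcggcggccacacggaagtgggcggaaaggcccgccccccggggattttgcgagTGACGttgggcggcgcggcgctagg
In PPP1R15A a full cAMP response element begins 58 bases before the start site and a half-site 152 bases before it. In PPP1R15B a composite core begins 227 bases and a half-site 101 bases before the start site. PPP1R15A is the only gene of the 9 whose entries hold the full element. A match is a description of these letters and shows no binding.

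All 3 bZIP factors with a row were higher. ATF4, the central transcription factor of the response, had a mean normalized count of 18110 and rank 99 by that mean in the authors' deposited table. Its log2 fold change there was 0.73 (SE 0.05, authors' adjusted p = 1.08e-54), which is 1.66-fold (95% interval 1.56 to 1.77). The implied group means were about 13604 and 22616, a gain of 9012 normalized counts and the largest of the 8 genes, although among the 6 higher genes only PPP1R15B had a smaller fold change. Per kb of exon, ATF4 stood at an implied 5411 in DMSO and 8996 in isoginkgetin, above every other gene of the 8 in both groups.

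ATF3 is an ATF4 target and often acts as a repressor that limits stress genes. Its mean normalized count in the authors' deposited table was 684.7, and per kb of exon its mean of 269.9 was close to the 268.0 of EIF2AK3, the lowest of the 8 genes. Its log2 fold change of 2.02 (SE 0.13, authors' adjusted p = 1.34e-50) in the authors' deposited table is 4.05-fold (95% interval 3.38 to 4.86). The implied group means were about 271.0 in DMSO and 1098 in isoginkgetin. Its interval overlapped those of PPP1R15A and EIF2AK3, so ATF3 is not separated from either by the errors, while the interval of PPP1R15A began at 4.75-fold and that of EIF2AK3 ended at 3.99-fold. These readings of intervals are descriptive, and no test between genes was run.

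CEBPG is a C/EBP protein that pairs with ATF4 on composite sites. In the authors' deposited table it was at 1.08 (SE 0.08, authors' adjusted p = 1.91e-43), or 2.11-fold (95% interval 1.90 to 2.35), at a mean normalized count of 3536. About 2273 in DMSO and 4800 in isoginkgetin are implied. The interval of CEBPG lay above that of ATF4 and below that of ATF3. CEBPB, a C/EBP protein of the acute phase response that also pairs with ATF4, has no row.

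Stretches with the composite core before start sites of ATF3 (chr1:212565196-212565243, plus strand) and CEBPG (chr19:33374051-33374098, plus strand) show the pattern TGATGNAA, which PPP1R15B also holds. The core is in capitals, and neither stretch holds an exon of GENCODE release 29.
ATF3: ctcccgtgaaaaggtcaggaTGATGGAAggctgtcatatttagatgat
CEBPG: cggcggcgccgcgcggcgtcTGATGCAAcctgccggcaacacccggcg
The core begins 191 bases before the start site in ATF3 and 42 bases before it in CEBPG, in 1 of the 2 entries that each gene has. CEBPG and PPP1R15B have the same 8 letters, TGATGCAA, while ATF3 has TGATGGAA. The composite core was thus found in 3 of the 13 entries, the half-site in 5 (2 of ATF4, 1 each of CEBPB, PPP1R15A and PPP1R15B) and none of the motifs in the entries of EIF2AK2, EIF2AK3 and EIF2AK4. The 2 entries of ATF4 overlap and hold the same half-sites. Promoter entries matched by symbol exist for 3079 of the 4493 higher and 2978 of the 4234 lower genes of the table, some with several entries. Of these, 3.68% of the 4269 entries of higher genes and 1.97% of the 4466 entries of lower genes hold the full cAMP response element. For the half-site the shares were 36.9% and 25.9%, and for the composite core 2.20% and 2.06%. No test was run on these shares.

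**Figure D2:**
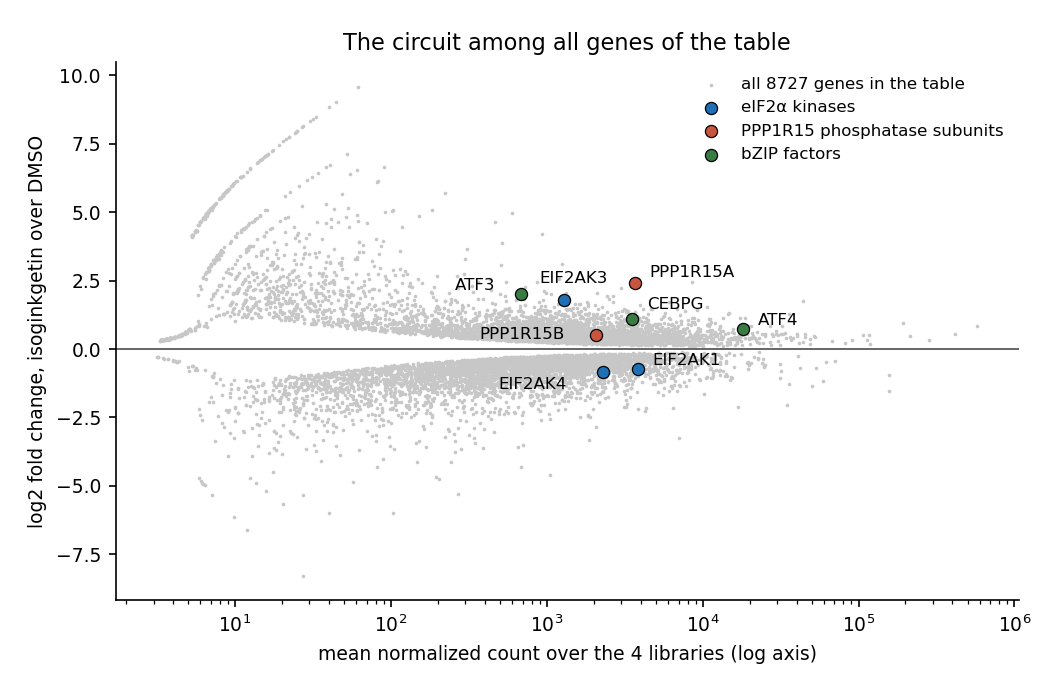
Log2 fold change (isoginkgetin over DMSO) against the mean normalized count (log axis) for all 8727 genes of the authors' table in grey, with the 8 genes coloured by role. PPP1R15A, at 2.40 and a mean of 3676, has the largest fold change of the 8, and ATF4, at 0.73, lies furthest to the right at 18110.

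**Figure D3:**
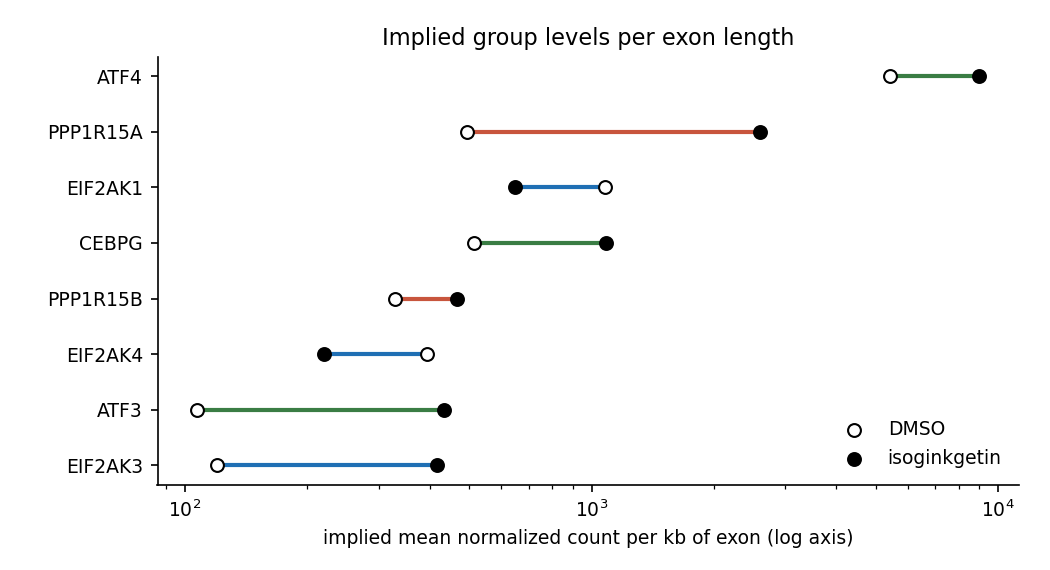
Implied group means of the 8 genes per kb of exon (log axis), computed from the authors' mean normalized count and fold change; open points are DMSO, filled points isoginkgetin, and line colours mark the roles as in the plot of fold changes. EIF2AK1 and EIF2AK4 move to the left, the other 6 to the right, and ATF4 is highest in both groups (5411 and 8996).

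The genes around these 10 were read from 9 lists with 106 genes in all, of which 68 have a row in the authors' deposited table. A gene on more than 1 list is counted once. The share with a row was 64.2%, against 43.6% of all genes tested. All lists were chosen with earlier results of these data known, so their shares are no independent evidence. Of the 68, 54 were higher and 14 lower, and the 54 include all 19 ATF4 target genes with a row. The median log2 fold change of the 68 was 0.46, beside 0.21 for all genes in the table. Centred on that 0.21, the split was 46 higher and 22 lower. The higher share was thus 79.4% as deposited, where 51.5% of all genes in the table were higher, and 67.6% after centring, which by construction splits the table evenly. The centre is a median over called genes alone and does not mark a value of no change.

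The substrate complex eIF2 and its exchange factor eIF2B stayed within 2-fold where they have a row. Of 8 subunits, 5 were higher and 1 lower in the authors' deposited table, with a median of 0.34, and 4 were higher and 2 lower after centring. A row exists for 75% of the subunits, against 43.6% of all genes tested. EIF2S1, the α subunit that the kinases phosphorylate, had the largest value in the authors' deposited table, 0.68 (SE 0.08). Among the other eIF2 subunits, the authors' deposited table gives 0.15 (SE 0.05) for EIF2S2 and −0.29 (SE 0.06) for EIF2S3. The eIF2B subunits EIF2B3, EIF2B2 and EIF2B5 were at 0.57, 0.43 and 0.24 in the authors' deposited table, and EIF2B1 and EIF2B4 have no row. Both catalytic subunits of protein phosphatase 1 with a row, PPP1CB (SE 0.07) and PPP1CC (SE 0.06), had the value 0.21 in the authors' deposited table, which is the median of all its genes at this precision, and were just below 0 after centring. PPP1CA has no row.

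Among 12 regulators of the kinases, 6 were higher and 1 lower in the authors' deposited table (4 and 3 after centring). The share of these regulators with a row was 58.3%, against 43.6% of all genes tested. The largest values belonged to genes of ER chaperones. In the authors' deposited table HSPA5, the ER chaperone BiP that holds PERK inactive, was at 1.75 (SE 0.05) and DNAJC3, an ER co-chaperone known as an inhibitor of eIF2α kinases, at 1.04 (SE 0.07). Of the proteins that bind double-stranded RNA, the authors' deposited table has ADAR, which restrains PKR, at 0.37 (SE 0.06) and PRKRA, which activates it, at 0.36 (SE 0.12). OMA1, the mitochondrial protease that starts the signal to HRI, was lower at −0.84 (SE 0.28) by the authors' deposited table, with a mean normalized count of 151.0. Its target DELE1 and the GCN2 regulator IMPACT have no row.

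The other sensors of ER stress and their partners went in both directions. In the authors' deposited table ERN1, which encodes IRE1α, was at 0.98 (SE 0.10) and its epithelial relative ERN2 at 1.16 (SE 0.25). The authors' deposited table has XBP1, the transcription factor whose mRNA IRE1α splices, at −0.92 (SE 0.06) and TRAF2, an adaptor of IRE1α, at −0.43 (SE 0.12). Of the proteases that cleave ATF6, the authors' deposited table gives −1.17 (SE 0.15) for MBTPS2 and −0.24 (SE 0.07) for MBTPS1. This made 2 higher and 4 lower of 8 listed, with ATF6 and ATF6B without a row. The share with a row was 75%, against 43.6% of all genes tested. The list's median was −0.33, and the counts were the same after centring.

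Of 7 genes that control ATF4 protein, 3 have a row, which is 42.9% and near the 43.6% of all genes tested. In the authors' deposited table EP300, a coactivator that stabilizes ATF4, was at 0.38 (SE 0.06) and FBXW11, a ubiquitin ligase subunit that marks it for degradation, at 0.20 (SE 0.09), the latter being below 0 after centring. EGLN3, an oxygen-dependent hydroxylase that interacts with ATF4, was at −2.30 (SE 0.51) at a mean normalized count of only 47.8 in the authors' deposited table, and was named after its value was seen.

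The rest of the bZIP family was mixed. Of 49 other bZIP genes, 28 have a row in the authors' deposited table, which is 57.1%, against 43.6% of all genes tested. Among the 28, 20 were higher and 8 lower (median 0.58), and 18 higher and 10 lower after centring. The authors' deposited table has the C/EBP relative DDIT3, which encodes CHOP, at 1.22 (SE 0.13), and CEBPA, CEBPD and CEBPE have no row. In the ATF and CREB branch the authors' deposited table gives 1.23 (SE 0.11) for the ER-bound factor CREB3 and 1.06 (SE 0.13) for ATF5, an ATF4 target. Lower values in the authors' deposited table were −1.23 (SE 0.27) for CREB3L4 and −0.73 (SE 0.10) for CREB1, the classic cAMP-responsive factor. Outside these branches the authors' deposited table gives 1.65 (SE 0.32) for FOS and 1.25 (SE 0.14) for JUNB, both immediate early factors. MAFG was at 0.998 (SE 0.07) and MAFF at 0.83 (SE 0.15), both small partners of NRF2, in the authors' deposited table. HLF, a factor of the circadian PAR branch, had −1.35 (SE 0.06) in the authors' deposited table.

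Of 24 known ATF4 target genes, 19 (79.2%) have a row in the authors' deposited table. All 19 were higher, 7 of them at least 2-fold, with a median of 0.85. Of all genes tested, 43.6% were called, 22.4% as higher and 6.26% as at least 2-fold higher. The count was the same after centring. PSAT1, SLC7A11, SLC7A5, FGF21 and STC2 have no row. Among those with a mean of 100 normalized counts or more, the largest values were 1.38 (SE 0.12) for CTH, an enzyme of cysteine synthesis, 1.29 (SE 0.04) for the secreted factor GDF15, 1.23 (SE 0.09) for the stress-induced nuclear protein NUPR1, 1.22 for DDIT3 and 1.09 (SE 0.16) for asparagine synthetase ASNS in the authors' deposited table. ATF4's own value of 0.73 lay below this list's median, and those of CEBPG, ATF3 and PPP1R15A lay above it. The list was chosen with earlier results of these data known, so its direction is no independent evidence. Promoter entries, 28 in all, were found for 19 of the 24 listed genes, with or without a row. Of these entries, 4 (14.3%) hold the composite core, 8 (28.6%) the half-site and 0 the full cAMP response element. Among all 35116 entries the shares were 3.62%, 24.6% and 1.85%. The composite core was in entries of ASNS, SLC3A2, CHAC1 and FGF21, named after the matches were seen.

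**Figure D4:**
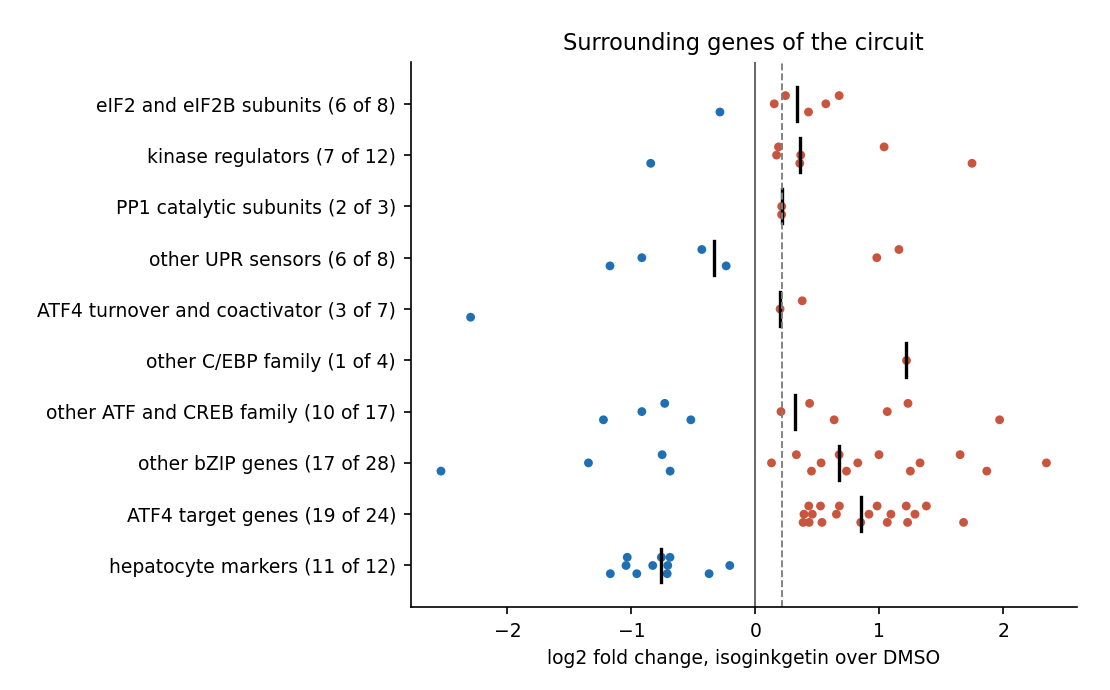
Log2 fold change (isoginkgetin over DMSO) of genes on the lists around the circuit and of hepatocyte markers; each point is a gene with a row in the authors' table (red above 0, blue below), brackets give how many of the listed genes have a row, black bars are list medians and the dashed line is the median of all genes in the table (0.21). The 19 ATF4 target genes all lie right of 0 and of the dashed line, and the 11 hepatocyte markers all lie left of 0.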

How the data were processed

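Per the labels' protocols, polyadenylated RNA was made into libraries with a kit that does not keep strand. Per the submitters' processing notes, STAR 2.7.0 and featureCounts were used, and the builds hg19 and mm10 are named without a role. The annotation, the test and its model formula were not given in the sources used here, and the depth per library is unknown. Per the file headers, the authors deposited a table of 1 comparison with the column names that DESeq2 writes. Its mean normalized count is a signal averaged over the libraries by the authors, not a count of any library. The deposited log2 fold change and its SE are on the log2 scale, and the authors' p-value and its adjusted form were deposited for each gene. Every row has an adjusted p under 0.05.

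The test per gene is the authors' own, so no count model was fitted. The number of genes tested was recovered from adjusted p times rank over p, a step tested on simulated data. Intervals are the fold change ± the normal 95% multiple of the SE. For the 8 genes, fold change over SE was 0.989 to 1.001 times the normal deviate of the p-value. That ratio was lower for some listed genes of low counts, such as 0.630 for CHAC1. Implied group means solve the mean and the fold change for 2 groups of equal size. They treat the fold change as a plain ratio of group means. Exon lengths and overlaps come from GENCODE release 29, and promoter sequences from RefSeq (GRCh38.p14). List genes were matched by current symbol, or by an older one (GCN1 and WARS1).

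The 10 genes and all lists were chosen with earlier results of these data known. Named genes are the 10, and up to 5 of each surrounding list with the largest absolute log2 fold change among genes with a mean of 100 normalized counts or more (all such genes in lists of up to 8). A single contrast gives no pattern over samples, so no gene is named for likeness to another. Python 3.11.15, pandas 2.3.3 and scipy 1.17.1 were used.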

Additional observations from a re-analysis of the deposited data

How the results depend on the processing

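No paired analysis was possible because the table holds no value per library, and for the same reason leaving out each library, other size factors, another count tool and testing without a filter on low counts were not run. Of 48 values (8 genes under 6 alternatives: adjusted p under 0.001, Bonferroni, at least 1.5-fold, at least 2-fold, a mean normalized count of at least 100, and centring), 43 passed and 5 missed a fold minimum. Only centring alters a fold change, and it turned 0 of the 8, while the minimum of 100 lies below the mean of each of these genes and could not remove one. The 5 were PPP1R15B at 1.5-fold and 2-fold, and EIF2AK1, EIF2AK4 and ATF4 at 2-fold, so that 0 of the 8 genes with a row were lower by 2-fold. Of the surrounding genes, 34 were higher and 7 lower with Bonferroni, 29 were higher at 1.5-fold, and 17 were higher and 5 lower at 2-fold. After centring 22 were lower, in place of 14. Of the 20024 genes tested, 1253 were called as higher and 1488 as lower by at least 2-fold. Of the ATF4 target genes, 12 were higher at 1.5-fold and 7 at 2-fold. These moves follow from the alternatives' own construction: stricter calls keep fewer genes, and centring shifts every fold change down alike. Precision is limited by 2 libraries a group and, for genes of low counts such as EGLN3 and OMA1, by depth, which is unknown per library.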
